A study of Mus musculus with 6 samples.

Results

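Fgf8-high cells were picked out of a day 3 culture of differentiating mouse embryonic stem cells (ESC), in which single cells had been profiled by droplet RNA sequencing. They were chosen by 3 limits on their own UMIs (unique molecular identifiers, each counting 1 captured transcript): at least 5 UMIs of Fgf8, fewer than 5 of T and fewer than 2 of Cdx2. A barcode counted as a cell when it held 1000 genes or more and no more than 10% of its UMIs were mitochondrial. The limits picked 20 of 1026 kept cKO cells and 40 of 948 kept Parental cells, 60 of the 1974 kept day 3 cells and of 7096 kept cells in the whole series. They were set against comparison cells of the same library, which held 0 Fgf8 UMIs and at least 20000 UMIs in all (721 in cKO, 499 in Parental). The series held 6 libraries, with cKO and Parental at the ESC stage, day 3 and day 6, 1 library each. The cKO genotype is labelled Oct1_cKO, a conditional knockout of Oct1. Oct1 is a POU-domain DNA-binding protein whose gene is Pou2f1. The labels do not give the deleted part, the Cre or the number of clones. Cells of both genotypes were plated on 0.1% gelatin and spent 2 days in N2B27 medium with Bmp4. A DMEM-based medium followed for 4 days, with LDN-193189, which blocks BMP receptors, and Rspo3, a strengthener of the Wnt response, so that day 3 fell in this second medium. Trypsin was used for harvest, and a 10x Genomics 5′ kit for the libraries, so a UMI marks the 5′ end of a transcript.

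FGF8 is a secreted fibroblast growth factor that the posterior epiblast and primitive streak of the mouse embryo make before and during gastrulation. Cells there also receive Nodal, a TGF-beta family ligand that needs a membrane-bound co-receptor, the product of Tdgf1 (Cripto), and that induces its own secreted inhibitors, the products of Lefty1 and Lefty2. Wnt3 acts in the same region, and T (Brachyury) and Eomes are T-box factors of the streak and nascent mesoderm. Cdx2 marks the later caudal progenitors. Cells chosen as high in Fgf8, with T and Cdx2 capped, therefore carry a ligand of this region. The limits put no cap on Eomes or on other factors of the region.

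With 1 library per genotype there were no replicates, no test was possible, and p-values are not given. Levels are summed UMIs of a set of cells, scaled to 1000000 UMIs (CPM). Their 95% Poisson intervals, the binomial intervals of log2 ratios and the Clopper-Pearson intervals of shares cover counting error alone. The 20 cKO Fgf8-high cells held 1817222 UMIs and the 40 Parental ones 4253249, so 20 CPM stands for 36.3 and 85.1 UMIs. Median depth was 80509.5 UMIs per Fgf8-high cell against 78797 per comparison cell in cKO, and 101251.5 against 82326 in Parental. Median mitochondrial shares were 4.62% against 4.11% in cKO and 4.23% against 3.78% in Parental. Scrublet marked 0 of the 20 cKO and 1 of the 40 Parental Fgf8-high cells as a doublet, and the 2 day 3 libraries shared 0 barcodes. Pou2f1 was lower in cKO in the Fgf8-high cells themselves, at 7.70 CPM (4.21 to 12.9) in cKO and 21.4 CPM (17.2 to 26.3) in Parental, a log2 ratio of -1.47 (-2.40 to -0.65). A 5′ tag is counted whether or not a later exon is deleted, so this level does not measure the deletion. Each cell was also scored by its UMI shares of chromosomes 1, 6 and 8 against chromosome 11, relative to the cKO day 3 medians. The score cannot tell a raised share from a lowered share on its other side. Typical cKO cells lie near 0 in it by construction. The Parental library mixed cells past its upper limit, here called chromosomes 1, 6 and 8 raised, and past its lower limit, called chromosome 11 raised. Of the 40 Parental Fgf8-high cells, 15 belonged to the first of these groups, 19 to the second and 6 to neither, while in cKO 19 of the 20 belonged to neither.

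The name "Fgf8-high cells without T" holds only in part. Of the 20 cKO cells 3 had 0 T UMIs, and of the 40 Parental cells 10 had 0. Over all their UMIs, T (mm10 chromosome 17, 8434423 to 8442496) measured 17.1 CPM (11.6 to 24.2) in Fgf8-high and 16.04 CPM in comparison cells of cKO, and 15.5 CPM (12.001 to 19.7) and 12.5 CPM in those of Parental. Comparison cells that met the same T and Cdx2 limits held 5.92 CPM of T in cKO and 4.39 CPM in Parental. The T level of the Fgf8-high cells was thus not below that of all comparison cells, and it was above that of cells under the same limits, which cap T. Cdx2 had 0 UMIs in 18 of 20 cKO and in 30 of 40 Parental Fgf8-high cells. Free RNA in the droplets was not measured, so single UMIs are not read as expression.

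Fgf8 itself (mm10 chromosome 19, 45736798 to 45742915, minus strand) chose the cells, and its level is a description. Single cells held 5 to 78 Fgf8 UMIs in cKO (median 12.5) and 5 to 43 in Parental (median 9.5). Just inside the limit, 2 cKO and 9 Parental cells had exactly 5 Fgf8 UMIs, and just outside it 6 cKO and 7 Parental cells had 4. Inside the T limit, 2 cKO and 6 Parental cells had exactly 4 T UMIs, and 4 cKO and 2 Parental cells were left out at exactly 5. At exactly 1 Cdx2 UMI 2 cKO and 10 Parental cells were kept, and at 2 Cdx2 UMIs 0 cKO and 4 Parental cells were left out. All cells with at least 5 Fgf8 UMIs numbered 71 in cKO and 154 in Parental, of which the Fgf8-high cells studied here made up 28.2% (18.1 to 40.1) and 26.0% (19.2 to 33.6).

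**Figure D1:**
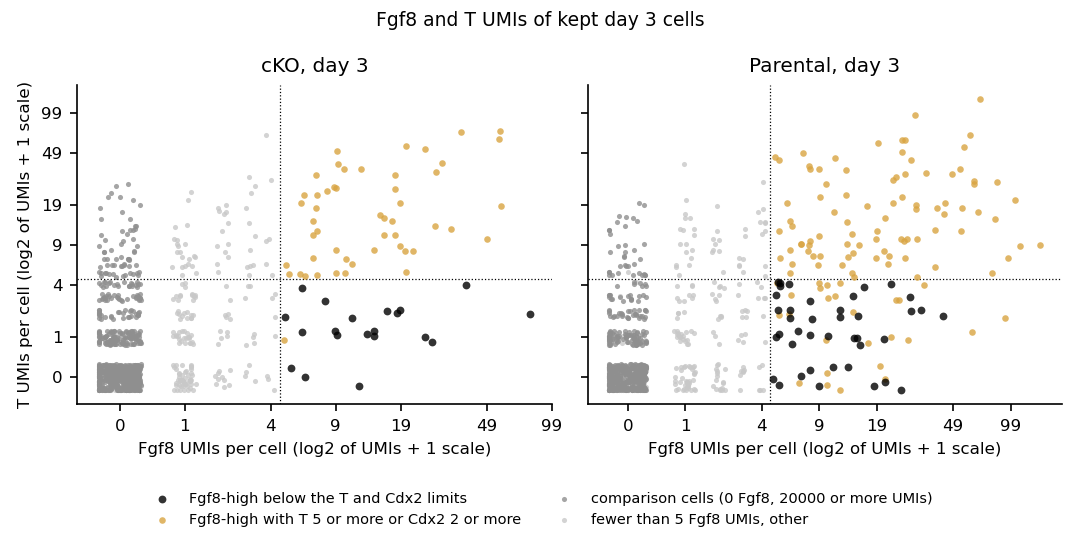
Fgf8 UMIs (horizontal) against T UMIs (vertical) of every kept day 3 cell, both on a log2(UMIs + 1) scale with a small random shift, cKO on the left and Parental on the right; dotted lines mark the limits of 5 UMIs. Black points are the 20 cKO and 40 Parental Fgf8-high cells, and the 51 cKO and 114 Parental gold points are cells with at least 5 Fgf8 UMIs that passed the T or the Cdx2 limit, so that gold points below the T line are high in Cdx2.

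Besides Fgf8, the genes at least 2-fold higher in the Fgf8-high cells of both libraries were Trh, Lefty1, Fgf5, Car14 and Nefl. RefSeq promoter sequences (build GRCm38.p6, the build of mm10) were found for 9 of 15 genes that the results turn on. The 250 bases before the start of transcription are printed for 3 of those 5 genes and for Tdgf1, past 2-fold in cKO alone. They lie at chr6:92244651-92244900, minus strand (Trh), chr5:98253934-98254183, plus strand (Fgf5), chr3:95904686-95904935, minus strand (Car14) and chr9:110946159-110946408, minus strand (Tdgf1). Each runs 5′ to 3′ on the strand of its gene, and capitals mark a GC box.
Trh: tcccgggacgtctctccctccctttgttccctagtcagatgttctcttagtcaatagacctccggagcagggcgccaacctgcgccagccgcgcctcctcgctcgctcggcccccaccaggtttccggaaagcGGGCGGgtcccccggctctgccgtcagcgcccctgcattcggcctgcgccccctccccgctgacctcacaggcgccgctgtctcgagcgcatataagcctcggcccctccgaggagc
Fgf5: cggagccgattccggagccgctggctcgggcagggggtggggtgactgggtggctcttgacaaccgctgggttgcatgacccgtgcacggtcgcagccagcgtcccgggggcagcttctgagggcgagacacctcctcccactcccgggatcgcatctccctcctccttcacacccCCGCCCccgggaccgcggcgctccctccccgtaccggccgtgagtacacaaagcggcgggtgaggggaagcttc
Car14: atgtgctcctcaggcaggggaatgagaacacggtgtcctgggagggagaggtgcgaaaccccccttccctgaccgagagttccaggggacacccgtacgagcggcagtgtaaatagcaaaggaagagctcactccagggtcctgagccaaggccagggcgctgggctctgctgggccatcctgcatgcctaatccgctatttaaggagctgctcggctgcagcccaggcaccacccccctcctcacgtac
Tdgf1: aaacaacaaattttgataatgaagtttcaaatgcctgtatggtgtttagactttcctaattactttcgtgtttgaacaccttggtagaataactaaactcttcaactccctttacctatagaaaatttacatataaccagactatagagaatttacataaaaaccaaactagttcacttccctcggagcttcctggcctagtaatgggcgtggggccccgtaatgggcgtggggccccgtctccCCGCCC
Both strands were searched for 6 motifs, none of which overlapped another in these windows: the POU octamer ATGCAAAT, the FOXH1 core AATCCACA, the TCF/LEF core CTTTGAT, the SMAD palindrome GTCTAGAC, the TATA box TATAAA and the GC box GGGCGG. The GC box stood 112 to 117 bases upstream of Trh, 69 to 74 bases upstream of Fgf5 on the opposite strand and 1 to 6 bases upstream of Tdgf1 on the opposite strand. It occurred in 33.0% of 32536 promoters of this length, so its presence in these windows is common. The Car14 window held none of the 6 motifs. The octamer, the motif that Oct1 binds, occurred in 1.62% of all promoters, and the FOXH1 core in 0.713%. A match describes letters and not a bound site, and a missing match says nothing of the factor.

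Few genes set the Fgf8-high cells apart. A gene was counted when it reached 20 CPM in whichever set was higher. In cKO 17 of 5091 such genes were at least 2-fold higher (0.334%) and 74 were at least 2-fold lower (1.45%). In Parental 16 of 5227 were higher (0.306%) and 65 lower (1.24%). In both libraries the same way, 6 of 4928 were higher (0.122%) and 35 lower (0.71%). Fgf8, which chose the cells, is among the higher genes in each of these counts. The median log2 ratio of all these genes was 0.02 in cKO and 0.00 in Parental. The 5 genes higher besides Fgf8 encode a releasing hormone precursor (Trh), a Nodal inhibitor (Lefty1), a growth factor of the epiblast (Fgf5), a membrane carbonic anhydrase (Car14) and a neurofilament subunit (Nefl). The 35 lower genes included matrix genes (Mgp, Spp1, Sparc), keratins (Krt8, Krt18), metallothioneins (Mt1, Mt2), p53 targets (Mdm2, Perp, Sfn) and the naive pluripotency gene Zfp42. Because a small share of comparison cells carried much of the UMIs of several of these, the counts were repeated without the 10% of comparison cells highest in Mgp, S100a6, Spp1, Krt8 and Krt18, an alternative chosen after seeing the data. The 5 higher genes besides Fgf8 were still counted, as was Fgf8 by the choice of the cells, and 11 of the 35 lower ones.

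**Figure D2:**
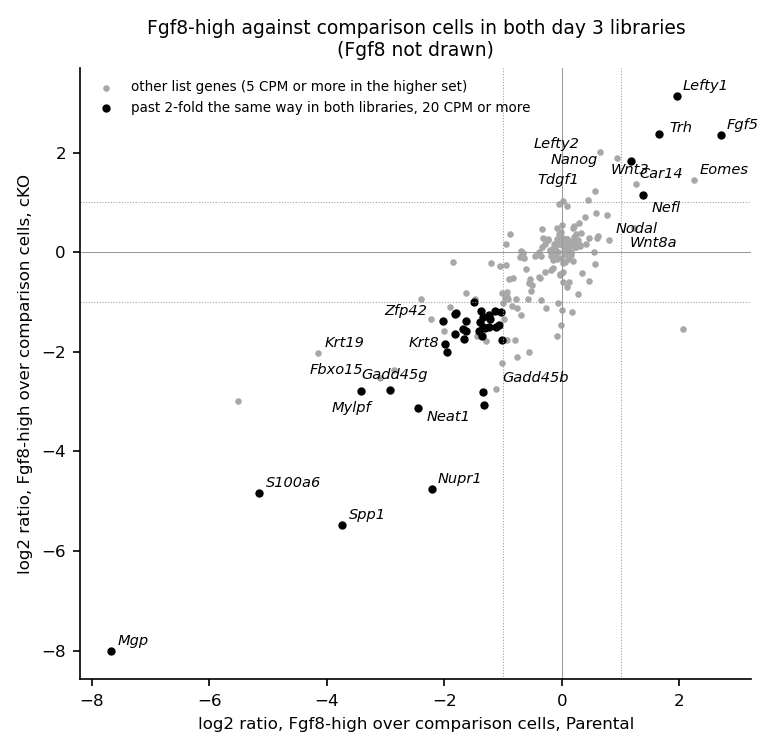
Log2 ratio of Fgf8-high over comparison cells in Parental (horizontal) and in cKO (vertical), for genes of the lists and genes counted in both libraries (5 CPM or more in the higher set), without Fgf8. Black points passed 2-fold the same way in both libraries with at least 20 CPM; Lefty1 (3.14 and 1.95 in cKO and Parental) and Fgf5 (2.36 and 2.71) lie at the upper right and Mgp (-8.02 and -7.67) at the lower left, and dotted lines mark 2-fold.

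The Nodal inhibitor gene Lefty1 and, to a smaller degree, Nodal itself were higher in the Fgf8-high cells. Lefty1 (mm10 chromosome 1, 180935022 to 180938400), the Nodal inhibitor that Nodal signalling induces, measured 394 CPM (366 to 424) in Fgf8-high and 44.6 CPM (42.9 to 46.3) in comparison cells of cKO, a log2 ratio of 3.14 (3.02 to 3.26). In Parental it measured 326 CPM (309 to 343) and 84.2 CPM (81.5 to 87.03), a log2 ratio of 1.95 (1.86 to 2.04). The lowest, median and highest Fgf8-high cell held 0, 69.5 and 2516 CPM in cKO and 0, 39.1 and 2219 CPM in Parental. The gene was uneven even within the Fgf8-high cells, with 6 of 20 cKO and 9 of 40 Parental cells at 0, and the ranges of the sets overlapped. The single comparison cell highest in Lefty1 held 3237 CPM in cKO and 7455 CPM in Parental, above every Fgf8-high cell. Lefty2, its paralog next to it on chromosome 1, measured 19.8 against 4.90 CPM in cKO and 17.9 against 11.4 CPM in Parental (log2 ratios 2.02 and 0.65), below the 20 CPM limit. In Parental, Lefty2 was higher only in cells with chromosomes 1, 6 and 8 raised (1.61). Its log2 ratio was -0.07 with chromosome 11 raised and -0.25 in neither group. Nodal itself (mm10 chromosome 10, 61417972 to 61425338) measured 85.8 against 50.9 CPM in cKO and 60.7 against 35.6 CPM in Parental, log2 ratios of 0.76 (0.51 to 0.99) and 0.77 (0.57 to 0.96). Although this was below 2-fold, 19 of 20 cKO and 35 of 40 Parental Fgf8-high cells lay above the median comparison cell of their library. Gdf3, a related TGF-beta family ligand of pluripotent cells, did not share this direction over all cells, with log2 ratios of 0.02 and -0.70. In Parental, Gdf3 gave 0.29 (0.03 to 0.54) with chromosome 11 raised. It gave -1.20 with chromosomes 1, 6 and 8 raised and -1.33 in neither group. Of the list of Nodal ligands and antagonists, 1 of 4 measured genes (Lefty1) was at least 2-fold higher in both libraries and 0 were lower, with median log2 ratios of 1.39 in cKO and 0.71 in Parental. Of all 8665 genes with at least 5 CPM in both libraries, 0.15% were higher in both and 1.06% lower, and the median over the genes measured in each library was 0.00 in cKO and -0.03 in Parental. Cer1, the Nodal antagonist of anterior endoderm, had 0 UMIs in the Fgf8-high cells of both libraries.

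Tdgf1 (mm10 chromosome 9, 110939603 to 110946158, minus strand), the Nodal co-receptor, was higher in Fgf8-high cells of cKO and less so in Parental. It measured 354 CPM (327 to 382) against 150.1 CPM in cKO, a log2 ratio of 1.24 (1.12 to 1.35), and 213 CPM (199 to 227) against 143 CPM in Parental, a log2 ratio of 0.57 (0.47 to 0.67). The lowest, median and highest Fgf8-high cell held 49.3, 309 and 954 CPM in cKO and 0, 189 and 963 CPM in Parental, and 19 of 20 and 32 of 40 lay above the comparison median. The receptors and transducers of the pathway differed little. Of that list 0 of 5 measured genes passed 2-fold in both libraries, and Smad2, which carries the Nodal signal to the nucleus, measured 21.5 against 22.5 CPM in cKO and 21.4 against 24.3 CPM in Parental. Smad7, an inhibitory Smad that TGF-beta family signals induce, had log2 ratios of 1.06 and 0.44, past 2-fold in cKO alone.

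Among FGF ligands, the other ligands did not follow Fgf8 as a family. Fgf5 (mm10 chromosome 5, 98254184 to 98277030), the ligand that marks the change of epiblast from the naive to the primed state, measured 37.97 CPM (29.5 to 48.1) in Fgf8-high and 7.40 CPM in comparison cells of cKO, a log2 ratio of 2.36 (1.97 to 2.73). In Parental it measured 32.4 CPM (27.3 to 38.3) and 4.98 CPM, a log2 ratio of 2.71 (2.39 to 3.02). The lowest, median and highest Fgf8-high cell held 0, 21.9 and 141 CPM in cKO and 0, 20.3 and 179.9 CPM in Parental, while the median comparison cell was at 0 in both. Fgf4, the ligand of naive ESC, was lower, at 3.85 against 8.30 CPM in cKO and 2.12 against 7.92 CPM in Parental (log2 ratios -1.11 and -1.90), so 1 of 2 measured members of the list was higher in both libraries and 1 lower. Fgfr1, the main FGF receptor of the epiblast, measured 47.3 against 46.2 CPM in cKO and 58.8 against 56.7 CPM in Parental. The feedback genes that FGF and ERK signalling induces (Sprouty, Dusp and Etv genes among them) showed no common direction. Of 15 measured, 0 passed 2-fold in both libraries, with medians of -0.02 in cKO and -0.29 in Parental, and Spry4 had log2 ratios of -0.94 and -0.92.

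Wnt3 and Eomes, both at low levels, were at least 2-fold higher in both libraries. Wnt3, the ligand that starts the streak, measured 14.9 CPM (9.79 to 21.6) against 5.76 CPM in cKO and 15.05 CPM (11.6 to 19.2) against 6.28 CPM in Parental, log2 ratios of 1.37 (0.74 to 1.93) and 1.26 (0.84 to 1.66). In Parental the log2 ratio of Wnt3 was 2.11 in the 15 cells with chromosomes 1, 6 and 8 raised, 0.62 in the 19 with chromosome 11 raised and 0.10 in the 6 of neither group, so it was past 2-fold in the first group alone. Wnt8a, a ligand of the posterior epiblast, had log2 ratios of 0.48 and 1.22 and passed 2-fold in Parental alone. Of the 3 measured Wnt ligands 1 was higher in both libraries, and Wnt3a, the ligand of later caudal progenitors, had 0 UMIs in all 60 Fgf8-high cells. Of the Wnt targets and antagonists 0 of 7 passed 2-fold in both. Eomes, the T-box factor of streak and endoderm, measured 7.15 CPM (3.81 to 12.2) against 2.62 CPM in cKO and 22.3 CPM (18.1 to 27.3) against 4.72 CPM in Parental, log2 ratios of 1.45 (0.51 to 2.27) and 2.24 (1.88 to 2.60). Its UMIs lay in 6 of 20 cKO and 19 of 40 Parental cells, and with every cell thinned to 20000 UMIs its log2 ratio in cKO was 0.08. Of the streak factors 1 of 2 measured was higher in both (Eomes), and Gsc and Lhx1 had 0 UMIs in the Fgf8-high cells. Sp5, a Wnt target that T-positive cells carry, was not higher (-1.03 and -0.07). Of the presomitic and neuromesodermal list 1 of 4 measured genes was lower in both (Cdx4, -2.23 and -1.02) and 0 were higher. The limits on T and Cdx2 cap the Fgf8-high cells and not the comparison cells. Against comparison cells under the same limits Cdx4 gave -0.04 in Parental, so it was not lower there. With every cell thinned to 20000 UMIs its log2 ratio in cKO was -0.37. Of the BMP response genes 0 of 7 passed 2-fold in both.

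Trh (mm10 chromosome 6, 92242061 to 92244650, minus strand) encodes the precursor of thyrotropin-releasing hormone, a peptide known from the hypothalamus, and its transcript is also found in pluripotent mouse cells. In cKO it measured 1721 CPM (1661 to 1782) in Fgf8-high and 332 CPM (327 to 337) in comparison cells, a log2 ratio of 2.37 (2.32 to 2.43). In Parental it measured 1089 CPM (1058 to 1121) and 346 CPM (341 to 352), a log2 ratio of 1.65 (1.60 to 1.70). The lowest, median and highest Fgf8-high cell held 17.2, 1249 and 4899 CPM in cKO, against 0, 38.9 and 4669 CPM for comparison cells. In Parental the lowest, median and highest were 0, 564 and 6291 CPM, against 0, 85.4 and 5433 CPM. Most Fgf8-high cells thus lay above the comparison median (19 of 20 in cKO and 32 of 40 in Parental), yet the top 10% of comparison cells held 62.8% and 58.2% of all comparison Trh UMIs and reached the same levels. Of the 3 peptide precursors measured in both libraries, Trh alone was at least 2-fold higher in both. Penk, the enkephalin precursor, was lower in cKO, at 2.20 against 6.36 CPM, but higher in Parental, at 10.8 against 2.59 CPM. Car14 measured 24.2 against 6.78 CPM in cKO and 23.04 against 10.2 CPM in Parental (log2 ratios 1.84 and 1.17), and Nefl 88.6 against 39.9 CPM in cKO and 99.5 against 38.3 CPM in Parental (log2 ratios 1.15 and 1.38). In the 3 cKO cells with 0 T UMIs the log2 ratio of Car14 was -0.66. Usp26, a deubiquitinase gene on chromosome X (51753959 to 51801233, minus strand) named as a marker of these cells, had 0 UMIs in the 20 cKO cells, which allows up to 1.65 CPM. In Parental it measured 17.6 CPM (13.9 to 22.1) against 15.5 CPM, a log2 ratio of 0.19 (-0.17 to 0.54), and its UMIs lay in 7 of 40 cells, so Usp26 did not mark the Fgf8-high cells of either library.

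Nanog was higher in the Fgf8-high cells, past 2-fold in cKO alone. Nanog (mm10 chromosome 6, 122707489 to 122714633), a homeobox factor that the posterior epiblast expresses again after implantation, measured 112 CPM (97.4 to 129) against 30.1 CPM in cKO and 95.7 CPM (86.6 to 105) against 49.8 CPM in Parental, log2 ratios of 1.90 (1.68 to 2.11) and 0.94 (0.78 to 1.10). The lowest, median and highest Fgf8-high cell held 0, 111 and 230.4 CPM in cKO and 11.1, 82.6 and 303 CPM in Parental, and 19 of 20 and 38 of 40 lay above the comparison median. Pou5f1 (Oct4), named after its values were seen, measured 559 against 477 CPM in cKO and 493 against 507 CPM in Parental. Of the general pluripotency list 0 of 12 genes passed 2-fold in both libraries (medians 0.09 and -0.06), with 2 higher in cKO and 0 in Parental. Of the primed epiblast list 1 of 13 did so upward (Fgf5) and 0 downward (medians -0.12 and 0.12). Dnmt3b, the de novo DNA methyltransferase of the epiblast, had log2 ratios of 0.79 and 0.58.

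Naive pluripotency genes, which mark ESC before differentiation, were lower in the Fgf8-high cells. Of 10 measured in both libraries 6 were at least 2-fold lower in both (Fbxo15, Fgf4, Klf4, Klf5, Tbx3 and Zfp42) and 0 higher, with median log2 ratios of -1.22 in cKO and -1.88 in Parental. Zfp42 (Rex1) measured 14.3 against 37.3 CPM in cKO and 22.6 against 91.9 CPM in Parental, log2 ratios of -1.38 (-1.999 to -0.83) and -2.03 (-2.33 to -1.73), and its median cell held 11.1 against 26.5 CPM in cKO and 18.4 against 34.8 CPM in Parental. Fbxo15 measured 2.20 against 12.6 CPM in cKO and 2.12 against 18.1 CPM in Parental, and Klf5, a Krüppel-like factor of naive cells, 6.60 against 16.7 CPM in cKO and 5.17 against 24.2 CPM in Parental. Without the 10% of comparison cells named above, 4 of 9 measured naive genes were lower in both libraries. Klf4 and Fgf4 had 0 UMIs in 17 and 16 of the 20 cKO Fgf8-high cells. With every cell thinned to 20000 UMIs, Klf4, Fgf4 and Klf5 gave -0.09, -0.30 and -0.61 in cKO, short of 2-fold. Zfp42 and Fbxo15 stayed past 2-fold lower in cKO with this thinning.

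Other low genes rested on few comparison cells. Mgp, matrix Gla protein of cartilage and fibroblasts, measured 0.550 against 142 CPM in cKO and 0.705 against 144 CPM in Parental, yet 681 of 721 cKO and 466 of 499 Parental comparison cells had 0 Mgp UMIs and the top 10% held all of them in both libraries. The fibroblast genes Col1a1, Col3a1, Lox, Bgn and Acta2 had 0 UMIs in the Fgf8-high cells of both libraries. Of that list 2 of 2 measured genes were lower in both libraries (Mgp and S100a4). Over its 9 genes, single Fgf8-high cells summed to between 0 and 38.97 CPM in cKO and between 0 and 41.8 CPM in Parental, while single comparison cells reached 47163 and 78497 CPM. Krt8, a keratin of simple epithelia, measured 22.6 against 70.6 CPM in cKO and 22.6 against 79.9 CPM in Parental (log2 ratios -1.65 and -1.82). Its median cell, however, held 21.7 CPM among Fgf8-high and 19.6 CPM among comparison cells of cKO, and 17.1 and 9.79 CPM in Parental, so the typical Fgf8-high cell was not low in Krt8. Of the surface ectoderm and keratin list 4 of 6 measured genes were lower in both (Krt8, Krt18, Krt19 and Perp), but 0 of 5 without the 10% of comparison cells. S100a6 and Spp1, a calcium-binding protein gene and the osteopontin gene, had log2 ratios of -4.84 and -5.15 and of -5.49 and -3.74, which came to -1.46 and -1.42, and to -2.20 and -1.59, without those cells. In Parental, Mgp and Krt8 then gave 0.08 and 0.40, no longer lower.

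Some stress genes were lower as well. Of the stress and p53 list 3 of 12 were at least 2-fold lower in both libraries (Atf3, Gadd45b and Mdm2) and 0 higher, with medians of -1.15 and -0.93, and 1 of 12 without the 10% of comparison cells. Gadd45g, a growth arrest gene, measured 7.15 against 48.6 CPM in cKO and 3.76 against 28.5 CPM in Parental (log2 ratios -2.76 and -2.92, and -2.67 and -2.92 without those cells). Mt2, a metallothionein that metals and stress induce, measured 65.5 against 196 CPM in cKO and 171 against 526 CPM in Parental, log2 ratios of -1.58 and -1.62, with 3 of 20 cKO and 9 of 40 Parental Fgf8-high cells above the comparison median. Mitochondrial shares, given above, were slightly higher in the Fgf8-high cells of both libraries, and their part in these ratios was not tested.

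Cell cycle and metabolic lists lay near 0. Of 15 S phase and 15 mitosis genes 0 passed 2-fold in both libraries, with medians of 0.16 and 0.00 for S phase and of 0.16 and 0.09 for mitosis. Glycolysis and hypoxia genes (0 of 12), D-type cyclins and Myc genes (0 of 8) and epithelial adhesion genes (0 of 8) did not pass either. The same held for mesenchymal transition genes (0 of 5), primordial germ cell genes (0 of 4), partners of POU and Smad factors (0 of 7), neural genes (0 of 3), visceral endoderm genes (0 of 2), and the 1 measured gene each of the FGF receptors, peptide processing, definitive endoderm and anterior Hox lists. Of the trophoblast list 1 of 2 was higher (Eomes, also a streak factor), and of the node list no gene was measured in both libraries. Several defining markers of other cell types were at 0. Sox17, Gata6, Foxa1 and Hnf4a of endoderm, Shh and Noto of notochord, Afp and Ttr of visceral endoderm, Neurog2 and Zic1 of neural tissue and all 8 genes of the 2-cell-like list had 0 UMIs in the Fgf8-high cells of both libraries. Other members of these lists were present. Summed over a list, visceral and primitive endoderm genes came to 921 against 1411 CPM in cKO and 570.4 against 832 CPM in Parental, nearly all of it Apoe, an apolipoprotein gene that is also expressed in other cells (911 against 1395 CPM in cKO and 555 against 817 CPM in Parental). The neural list came to 94.1 against 133 CPM in cKO and 103 against 160.2 CPM in Parental. Both sums were lower in the Fgf8-high cells of both libraries.

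**Figure D3:**
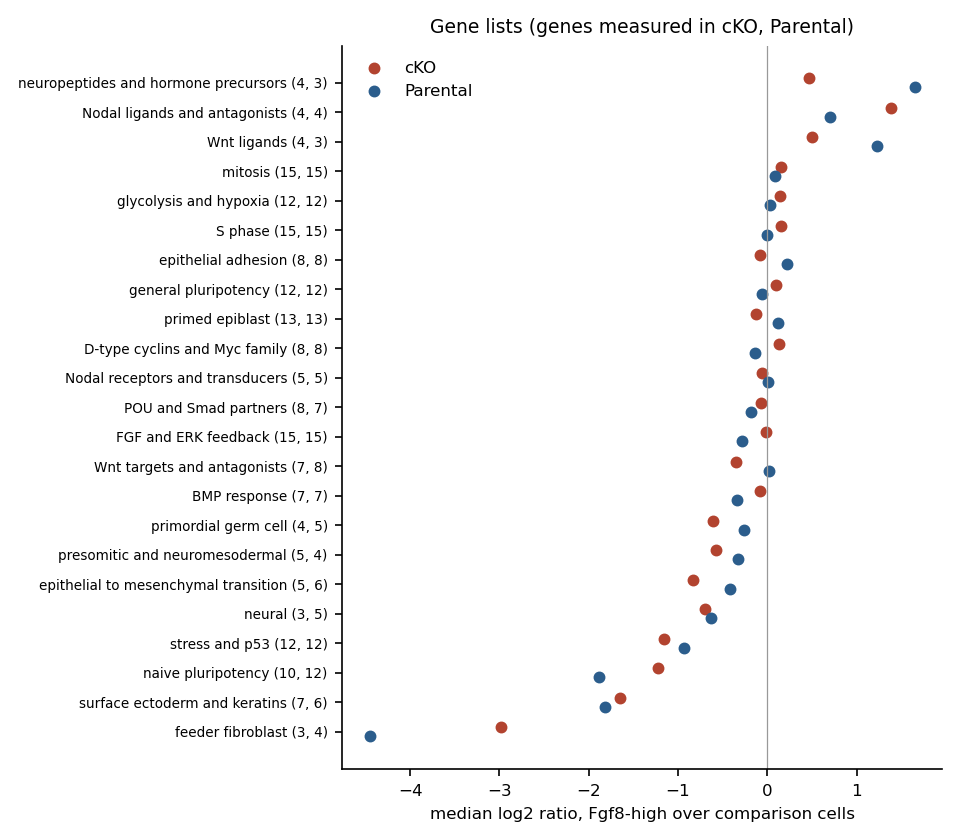
Median log2 ratio of Fgf8-high over comparison cells (horizontal) for each gene list with at least 3 measured genes in both libraries, cKO in red and Parental in blue; the numbers measured are in parentheses. Nodal ligands and antagonists lie above 0 (1.39 and 0.71) and naive pluripotency genes below it (-1.22 and -1.88), while the feeder fibroblast and keratin medians rest on few comparison cells.

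The number of high genes per cell was counted as a description. For Trh, Lefty1, Tdgf1, Nodal, Nanog and Fgf5, a cell was counted for each gene above the upper quartile of its library's comparison cells. This quartile was 0 CPM for Fgf5 in Parental, and 9.20 CPM for Fgf5 and 12.04 CPM for Lefty1 in cKO. A single UMI could therefore count as above it for these genes. At least 4 of the 6 were above it in 13 of 20 cKO Fgf8-high cells (65.0%) and 67 of 721 comparison cells (9.29%), and in 19 of 40 (47.5%) and 41 of 499 (8.22%) in Parental. All 6 were above it in 2 cKO and 1 Parental Fgf8-high cell. The genes were taken because each was higher alone, so whether they met in the same cells beyond that was not tested. The cells nevertheless did not form a set of their own. Among the 15 nearest neighbours in a principal component space built without Fgf8, T and Cdx2, 3.67% of the neighbours of a cKO Fgf8-high cell were Fgf8-high cells of this kind (1.95% of the library) and 48.3% had 0 Fgf8 UMIs (74.7% of the library). In Parental these shares were 7.50% (4.22% of the library) and 35.5% (65.2% of the library). The other cells with at least 5 Fgf8 UMIs, those past the T or Cdx2 limit, made up 12.3% of the neighbours in cKO (4.97% of the library) and 26.2% in Parental (12.03% of the library). Fgf8-high cells below the limits thus lay next to those above them and next to cells without Fgf8 UMIs.

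**Figure D4:**
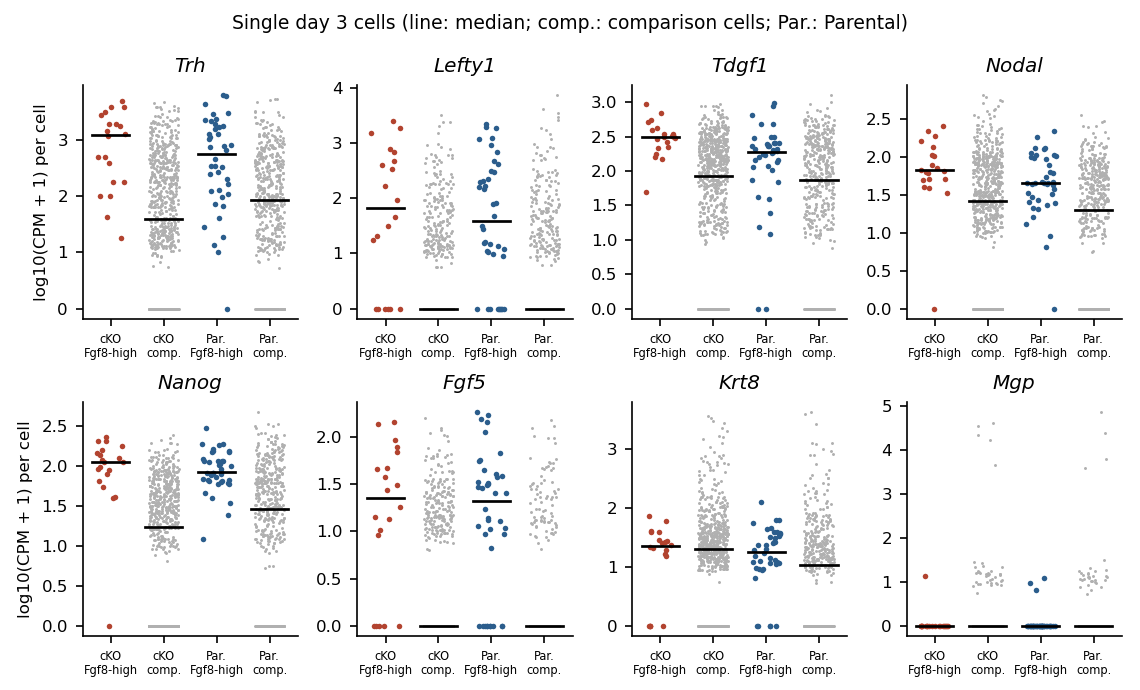
Single-cell levels as log10(CPM + 1) of 8 genes, with Fgf8-high cells left of comparison cells (grey) for cKO and then Parental; black lines are medians. Trh and Nanog medians are higher in the Fgf8-high cells, with overlapping ranges, while the Krt8 medians are not lower and Mgp lies at 0 in most cells of all 4 sets.

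The levels followed the number of Fgf8 UMIs for several genes. Cells below the T and Cdx2 limits were divided into those with 0 Fgf8 UMIs (603 in cKO, 368 in Parental), 1 to 4 (105 and 86) and at least 5 (20 and 40). In that order Trh measured 281, 692 and 1721 CPM in cKO and 343, 788 and 1089 CPM in Parental. Lefty1 measured 47.3, 196 and 394 CPM in cKO and 107, 203 and 326 CPM in Parental. Trh and Lefty1 were thus higher in each step in both libraries. Fgf5 measured 7.62, 15.2 and 37.97 CPM in cKO and 5.998, 16.9 and 32.4 CPM in Parental. Nanog measured 28.5, 53.1 and 112 CPM in cKO and 52.2, 81.6 and 95.7 CPM in Parental. Tdgf1 was higher in each step in cKO, at 152, 231 and 354 CPM, but in Parental the last 2 groups were alike, at 150.4, 216 and 213 CPM. Nodal likewise measured 42.2, 61.7 and 60.7 CPM in Parental, and 54.4, 57.8 and 85.8 CPM in cKO, where the first 2 groups had overlapping intervals. T, although limited to fewer than 5 UMIs in all 3 groups, measured 5.92, 11.5 and 17.1 CPM in cKO and 4.39, 8.79 and 15.5 CPM in Parental. Cells with more UMIs in all can hold more Fgf8 UMIs, and median depths over the 3 groups were 76496, 82756 and 80509.5 UMIs in cKO and 81752.5, 90517 and 101251.5 in Parental. With both sets limited to cells of at least 60000 UMIs, the log2 ratios of Fgf8-high over comparison cells in cKO and Parental were 2.36 and 1.61 for Trh, 3.29 and 2.08 for Lefty1 and 2.30 and 2.68 for Fgf5.

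**Figure D5:**
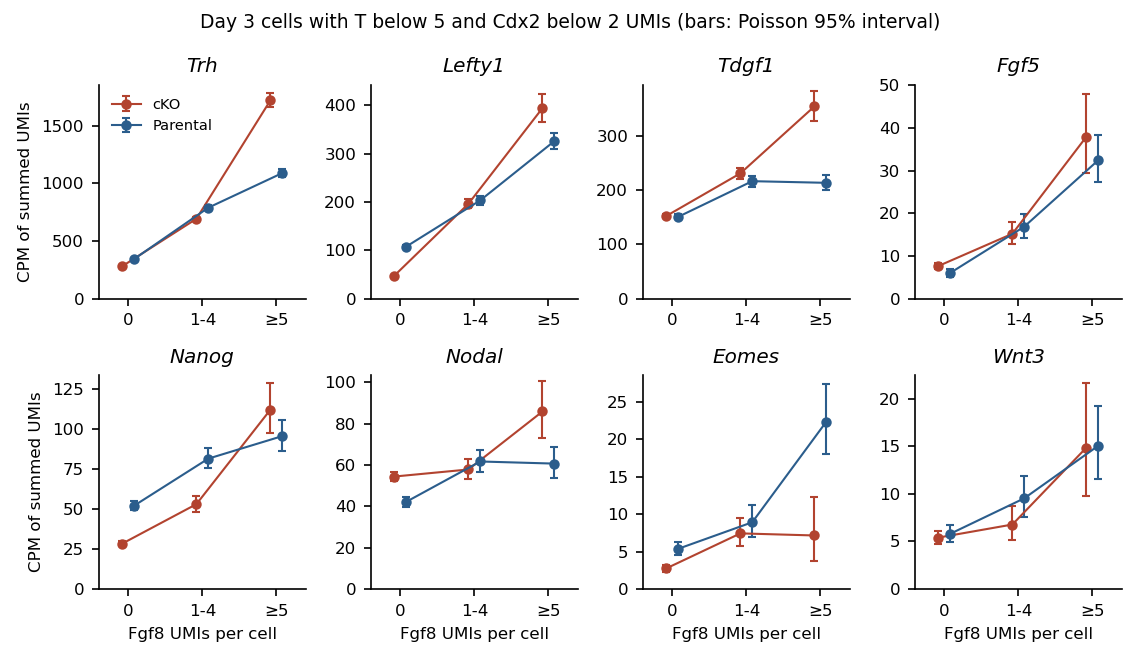
CPM (vertical, from 0) of 8 genes in day 3 cells below the T and Cdx2 limits with 0, 1 to 4 and at least 5 Fgf8 UMIs (horizontal), cKO in red and Parental in blue, with Poisson 95% intervals. Trh, Lefty1, Fgf5 and Nanog are higher in each step in both libraries, while Tdgf1 and Nodal level off in Parental.

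Set against the other cells with at least 5 Fgf8 UMIs (51 in cKO, 114 in Parental), which passed the T or Cdx2 limit, the Fgf8-high cells below the limits differed by few genes in both libraries. Of 4853 genes 1 was at least 2-fold higher (0.0206%) and 7 lower (0.144%). The higher one was Dppa3 (Stella), a gene of naive cells and primordial germ cells, at 24.2 against 9.47 CPM in cKO and 22.6 against 9.90 CPM in Parental (log2 ratios 1.35 and 1.19). Against comparison cells Dppa3 was not higher, with log2 ratios of -0.28 in cKO and -1.06 in Parental. The 7 genes lower than in the other Fgf8-high cells were T and Cdx2, which the limits had chosen, with Cdx1, Sp5, Apln, Grsf1 and S100a10. Cdx1, a caudal homeobox gene, measured 11.01 against 24.7 CPM in cKO and 9.87 against 32.3 CPM in Parental, and Sp5 16.5 against 66.9 CPM in cKO and 36.4 against 75.7 CPM in Parental. Apln, the gene of the apelin peptide, measured 7.15 against 25.7 CPM in cKO and 11.5 against 23.9 CPM in Parental. Apln, Grsf1 and S100a10 fall outside the rule for named genes and were named after their values were seen. Lefty1 was higher below the limits in both libraries (394 against 106 CPM in cKO and 326 against 213 CPM in Parental), past 2-fold in cKO alone. Trh measured 1721 against 918 CPM in cKO and 1089 against 1030.3 CPM in Parental and Fgf5 37.97 against 28.004 CPM in cKO and 32.4 against 30.96 CPM in Parental, so both genes were within 2-fold in both libraries. Car14 and Nefl were past 2-fold in cKO alone (log2 ratios 1.21 and 1.18). In Parental Car14 measured 23.04 against 19.6 CPM and Nefl 99.5 against 99.4 CPM, so these levels were not particular to the cells below the limits. The level of Fgf8 itself was 187 against 177 CPM in cKO and 121 against 228 CPM in Parental.

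Fgf8-high cells made up 1.95% of kept cKO cells (1.19 to 2.99) and 4.22% of kept Parental cells (3.03 to 5.70). The other cells with at least 5 Fgf8 UMIs made up 4.97% and 12.03%, so both kinds were scarcer in the cKO library, in like proportion. With every cell thinned to 20000 UMIs the shares that met the limits were 1.33% and 3.56%. The shares are not independent of Fgf8 over the whole library, which was lower in cKO (17.9 CPM, against 49.98 CPM in Parental).

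Within the Fgf8-high cells, cKO differed from Parental by 17 of 5119 genes at least 2-fold higher (0.332%) and 45 lower (0.879%). Otx2, a homeobox factor of the anterior epiblast, measured 24.8 CPM in cKO and 9.87 CPM in Parental, a log2 ratio of 1.33 (0.69 to 1.97), against 0.32 in comparison cells. It had 0 UMIs in 11 of 20 cKO and 25 of 40 Parental Fgf8-high cells. Eomes was lower, at 7.15 CPM in cKO and 22.3 CPM in Parental, a log2 ratio of -1.64 (-2.60 to -0.80), against -0.85 in comparison cells. Meis2, a homeobox cofactor, and Gprc5c, a G protein-coupled receptor gene, were lower, with log2 ratios of -1.87 and -2.94, while comparison cells gave 0.12 and -0.17. The top 10% of Parental Fgf8-high cells (4 cells) held 63.2% of the Eomes UMIs, 69.4% of the Meis2 UMIs and 56.7% of the Gprc5c UMIs, so these ratios rest on few cells. Sgk1, a serum and glucocorticoid regulated kinase, differed as much among comparison cells (-1.58 and -1.56). So did Rras, a small GTPase (1.39 and 2.01), and Adgrb2, an adhesion receptor gene (2.27 and 2.88). Ndufa4l2, a mitochondrial gene that hypoxia induces, had log2 ratios of 3.101 in Fgf8-high and 1.48 in comparison cells. Rhox5 and Klhl13, both on chromosome X, had the lowest ratios (-4.15 and -3.65), with 99.04% and 78.2% of their Parental UMIs in the top 10% of cells. The difference between Fgf8-high and comparison cells in any of these genotype ratios was not tested, since each rests on 1 library a genotype. Trh, Lefty1, Tdgf1 and Nodal were all higher in cKO Fgf8-high cells (0.66, 0.27, 0.73 and 0.50), below 2-fold, while comparison cells gave -0.06, -0.92, 0.07 and 0.51. Fgf8, which chose the cells, was itself higher in the cKO ones, at 187 against 121 CPM. Its log2 ratio was 0.63 (0.43 to 0.83), and its part in these ratios was not tested.

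Genotype and chromosome group cannot be told apart in these libraries. Past the limits of the score, which is centred on cKO, lay 34 of 40 Parental and 1 of 20 cKO Fgf8-high cells. Within Parental the groups could be compared. Cells with chromosomes 1, 6 and 8 raised made up 37.5% of Fgf8-high and 60.3% of comparison cells, those with chromosome 11 raised 47.5% and 28.3%, and those in neither group 15% and 11.4%. In that order of groups, Fgf8-high over comparison cells gave log2 ratios of 1.69, 1.92 and 1.08 for Trh, 1.04, 1.13 and 1.95 for Nanog and 2.37, 2.53 and 2.05 for Eomes. All 3 genes were thus past 2-fold in each group. Lefty1 gave 2.69, 1.27 and 1.05 and Fgf5 4.603, 1.14 and 2.74, again higher in each. Nodal and Tdgf1 gave 1.11, 0.48 and 0.42 and 0.40, 0.38 and 1.03. Usp26 was highest in cells with chromosome 11 raised, at 33.8 CPM in Fgf8-high and 44.9 CPM in comparison cells. In the group with chromosomes 1, 6 and 8 raised it was at 0 UMIs in Fgf8-high and 0.898 CPM in comparison cells. In neither group it was at 0 UMIs in Fgf8-high and 13.5 CPM in comparison cells. Within the chromosome 11 group Fgf8-high over comparison cells gave a log2 ratio of -0.41. Keratin and Mgp ratios also split by group: Krt8 gave -0.18 and -2.53 in the first and second group, and Mgp comparison cells held 243 and 0.718 CPM. Among naive genes, Zfp42 gave -2.03 and -0.94, Klf5 -2.78 and -1.55, and Fbxo15 -3.51 and -1.84. Klf4 and Fgf4 were past 2-fold lower in the first group (-2.09 and -2.22) but not in the chromosome 11 group (0.38 and -0.86), where their intervals spanned 0. Mt2 likewise gave -1.61 in the first group and -0.42 in the chromosome 11 group.

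Cells that met the limits were scarce at the other stages. At day 6, 16 of 1650 cKO cells (0.970%) and 10 of 1546 Parental cells (0.647%) met the same limits, and at the ESC stage 1 of 530 cKO and 0 of 1396 Parental cells did, where 0 allows a share of up to 0.215%. The day 6 cells carried little Tdgf1, at 33.7 CPM in cKO and 24.9 CPM in Parental, against 354 and 213 CPM in the day 3 cells. Trh measured 277 and 538 CPM in them, with UMIs in 4 of 16 and 3 of 10 cells. Lefty1 measured 1.05 and 169 CPM, and Fgf5 8.43 and 66.01 CPM, so the Parental day 6 cells, though few, carried Fgf5 above the day 3 level of 32.4 CPM. At the ESC stage Fgf8 itself was nearly absent from both libraries, at 1.59 CPM in cKO and 0.873 CPM in Parental, while Tdgf1 measured 265 and 235 CPM over all cells. Tdgf1 alone is therefore no mark of the day 3 cells. The number that opens the titles differs between the ESC stage and both later stages, and what it stands for is not stated.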

How the data were processed

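Single-cell RNA-seq of 6 libraries was used, 1 per genotype and stage. The deposited values were raw UMI counts per gene and barcode, made by the authors with Cell Ranger 3.1.0 per the file headers and on mm10 per the submitters' processing notes. Reads without a gene are not in these counts. Counts were summed over each set of cells and scaled to CPM, and ratios were taken of CPM (Python 3.11.15, numpy 2.4.6, pandas 2.3.3, scipy 1.17.1). Doublets were called with Scrublet in scanpy 1.11.5, neighbours with scikit-learn 1.9.0 and figures with matplotlib 3.10.9. The chromosome groups come from a score of chromosomes 1, 6 and 8 against chromosome 11, relative to the medians of the cKO day 3 cells. Its limits were plus and minus 0.25, and GENCODE M21 gave positions for 30934 of 31053 genes. The procedure was tested on simulated data, which held counting error alone and no variation between cells.

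Cells were chosen by UMIs of Fgf8, T and Cdx2, so these 3 genes are descriptions. Genes counted as past 2-fold reached 20 CPM in the higher set, or 5 CPM for the 33 lists (350 genes), which were counted only where both libraries moved the same way. Named genes were Fgf8, Tdgf1, Usp26, Trh, T, Cdx2 and Pou2f1, up to 15 highest and 15 lowest genes past 2-fold in both libraries with UMIs in at least 5% of cells, up to 10 in each direction between genotypes, and up to 4 per list. The members, lists and this rule were chosen with earlier results of these data known. Other genes were named after their values were seen: Pou5f1, Tbx3, Krt18, Mt1, Sparc, Sfn, Apln, Grsf1, S100a10, Wnt6 and Foxa2 at day 6, and genes named as at 0. Other Fgf8, T, depth, barcode, scaling and doublet limits were tried as alternatives.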

Additional observations from a re-analysis of the deposited data

Results flagged for a closer look

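Cells that met the day 3 limits also occurred at day 6, outside the comparisons made: 16 of 1650 cells in cKO (0.970%, with a Clopper-Pearson interval of 0.555 to 1.57) and 10 of 1546 in Parental (0.647%, 0.311 to 1.19). Both shares lie above the 0.182% and 0.194% that a count of 0 would allow. Summed over these cells, Wnt6, a Wnt ligand of surface ectoderm, measured 392 CPM in cKO and 54.3 CPM in Parental, Foxa2, an endoderm and node factor, 25.3 and 30.8 CPM, and Lefty1 1.05 and 169 CPM. What these day 6 cells are was not tested.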

How the results depend on the processing

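No paired analysis was possible because each group held 1 library. The main counts of genes past 2-fold were 91 in cKO, 81 in Parental, 41 in both and 62 between genotypes. Thinning every cell to 20000 UMIs gave 338, 175, 74 (the 41 among them) and 548, and a limit of 5 CPM gave 417, 280, 105 and 485. With 0 T UMIs (3 cKO and 10 Parental cells) there were 659 in cKO, 156 in Parental and 870 between genotypes, and the shares of kept cells were 0.292% in cKO and 1.05% in Parental. At least 3 Fgf8 UMIs gave shares of 3.31% and 6.12%, and at least 10 gave 1.17% and 2.11%, with 151 genes between genotypes. Cells of neither chromosome group (6 in Parental) gave 298 in Parental and 241 between genotypes. In each of these sets fewer UMIs, a lower limit or fewer cells entered by construction. Leaving out the 10% of comparison cells highest in Mgp, S100a6, Spp1, Krt8 and Krt18, chosen after seeing the data, gave 60 in cKO, 48 in Parental and 17 in both, all 17 among the 41. By construction this removes the cells highest in those genes. Of 1321 gene ratios 36 differed in sign from the main value, 6 of them past 2-fold in the main comparison. These were Cdx2 in Parental against comparison cells under the same limits (1.04), Atf3 in cKO with 0 T UMIs (0.17) and 4 with at least 20 CPM: Car14 in cKO with 0 T UMIs (-0.66) and, in Parental without the 10% of comparison cells, Mgp (0.076), Krt8 (0.40) and Krt18 (0.37). Of 879 list medians 67 differed in sign, 3 of them past 2-fold in the main comparison: peptide processing in cKO with 0 T UMIs (0.91), and feeder fibroblast in cKO with a stricter barcode filter (1.24) and without the 10% of comparison cells (0.86). Depth limits the cKO cells most, where 20 CPM is 36.3 UMIs and a count of 0 allows up to 1.65 CPM. With 1 library a genotype, variation between cultures was not measured.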
